A study of Mus musculus with 8 samples.

Results

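Replication licensing factors are the proteins that load the MCM helicase onto origins of DNA replication, set it in motion, or hold that loading back. The members were chosen by gene symbol: Mcm2, Mcm3, Mcm4, Mcm5, Mcm6, Mcm7, Mcm10, Cdc6, Cdt1 and Gmnn. All 10 were found among the 24346 genes listed, and all 10 were among the 18862 genes that were above 0 FPKM (mapped fragments scaled by transcript length and library total) in at least 1 library and were tested. The study asked how growth in a 3D gel changes mouse adipose-derived stem cells (ADSCs), stromal progenitors of fat, relative to conventional 2D culture. Total RNA of 8 primary cultures was sequenced, with 1 library per mouse and culture. The 2D group held 4 libraries, from mice 2, 3, 4 and 5, and the 3D group held 4, from mice 1, 4, 5 and 7. The animals of both groups were wild type BALB/c males aged 12 weeks, and the cells came from gonadal fat. The 3D cells were embedded in Matrigel, a basement membrane extract, and fed media that variously held serum or medium conditioned with Wnt3a or R-Spondin1. Which medium and which passage the sequenced cultures had is not given in the sources used here.

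Licensing is the step by which a cell marks an origin for a single use in the coming S phase. In G1, the origin recognition complex, Cdc6 and Cdt1 place a ring of Mcm2 to Mcm7 around the DNA, where it stays inactive. At the start of S phase, kinases, Cdc45, the GINS complex and Mcm10 turn the ring into a moving helicase, while geminin, the product of Gmnn, binds Cdt1 so that no origin is loaded again in the same cycle. Many of these genes are textbook targets of the E2F factors and are low in resting cells.

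The letters at the starts of these genes are shown because most of the members share an E2F-type word there, which is rare among promoters. RefSeq promoter windows on GRCm38.p6, from 250 bases before to 50 bases after a start, were matched by symbol for 8 of the 10 members, and Mcm4 and Gmnn had no entry. The words searched were TTTCCCGC, TTTCGCGC, TTTGCCGC and TTTGGCGC on either strand. Such a word stood in the windows of 6 of the 8 members, namely Mcm3, Mcm5, Mcm6, Mcm7, Cdc6 and Cdt1. Counted by gene in the same way, such a word stood in 704 of all 27025 genes with a window (2.60%). Counted by window, the figure was 744 of 32851 (2.26%), since a gene can have several windows. The word stood in 20 of the 63 genes with a window in the other lists used below, proliferation markers left out. For each of these 6 members the word nearest to the start is printed 5′ to 3′ on the gene's strand, with the word in capitals and its first base counted from the start.
Mcm3, chr1:20820276-20820303, minus strand, position 20: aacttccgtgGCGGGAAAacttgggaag
Mcm5, chr8:75109350-75109377, plus strand, position -149: aagaactttcGCGCCAAAacgtccagcc
Mcm6, chr1:128359735-128359762, minus strand, position -47: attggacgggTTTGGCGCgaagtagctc
Mcm7, chr5:138171850-138171877, minus strand, position 17: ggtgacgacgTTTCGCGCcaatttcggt
Cdc6, chr11:98908003-98908030, plus strand, position -138: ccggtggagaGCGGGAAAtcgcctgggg
Cdt1, chr8:122568037-122568064, plus strand, position 33: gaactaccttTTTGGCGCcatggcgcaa
The words of Mcm3, Mcm5 and Cdc6 stood on the opposite strand, so their capitals are the reverse complement of a listed word. The window of Mcm5 held a TTTCGCGC word that overlaps the one printed, and in the window of Mcm6 a pair of words further from the start overlap each other. The windows of Mcm5, Mcm7 and Cdc6 lie around starts inside the RefSeq genes, whose first bases on their strands are 75109468, 138172111 and 98907709. CCAAT, searched on either strand, stood in the windows of Mcm2, Mcm3, Mcm5, Mcm6, Mcm7 and Mcm10, 6 of the 8 members. CCAAT stood in 41.1% of all genes with a window, and in 37.4% of all windows. These matches describe letters and are not evidence of a bound factor, and a window without a word says only that the letters are not in it.

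The spacing of low FPKM values put the depth at an estimated 16.4 M to 17.3 M fragments per 2D library and 14.5 M to 15.5 M per 3D library. The labelled cell type, mesenchymal stem cells, was checked against markers. The normalized FPKM summed over 12 stromal genes was 2163 to 4837 in 2D and 4.86 to 8.79 in 3D, with Pdgfrb and Dcn listed at 0 in all 4 3D libraries. The sum over 12 epithelial genes was 31.8 to 694 in 2D and 2723 to 3183 in 3D, so the markers of the 3D libraries went against the label. Markers of mesothelium, the lining of the fat pad, summed to 816 and 2002 for the 2D cultures of mice 3 and 4, against 1.99 and 0.525 in those of mice 2 and 5 and 1.57 to 33.7 in 3D. Macrophage genes summed to 2.07 to 21.3 in 2D and 6.25 to 42.3 in 3D. Of them, Cd68 was higher in 3D, Csf1r and Ptprc overlapped, and Lyz2 and Adgre1 were at 0 in all 4 3D libraries. Sums were 1.07 to 6.79 in 2D and 0.0480 to 0.202 in 3D for endothelial genes. For adipocyte genes they were 12.9 to 48.2 and 0.0799 to 0.546. The part of these cell types in the differences below was not tested. In such bulk RNA, fewer cycling cells and less licensing mRNA per cycling cell cannot be told apart.

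All 10 licensing factors were lower in the 3D cultures. By limma's moderated test on quantile normalized log2(FPKM + 1), 10 of 10 passed an adjusted p of 0.05 (Benjamini-Hochberg over the 18862 genes), with fitted log2 fold changes of -1.80 (Mcm5) to -0.86 (Cdt1). Their median was -1.19, against 0.00 over all genes tested. The background is wide, since 20.3% of all genes tested were lower in 3D by the same threshold, and 26.0% of those averaging 1 FPKM or more. A further 21.2% were higher in 3D, and none of the members was. By the study's criterion of a fold under 0.5 with an unadjusted p below 0.05, taken on this log2 scale, 7 of 10 members passed, against 11.0% of genes, and Mcm2, Mcm7 and Cdt1 did not. The added 1 FPKM shrinks the change of a low gene such as Cdt1, whose log2 fold change was -1.29 with 0.1 FPKM added instead. In 7 of 10 members every 3D library lay below every 2D library, against 20.9% of genes and 26.3% of those averaging 1 FPKM or more, and Mcm3, Mcm6 and Mcm10 overlapped. On the values as deposited the count was again 7, against 21.8% of genes. These p-values measure the spread between single cultures of a few mice.

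The count rested on several libraries and on how the mice are treated. Without the 2D library of mouse 2, the 2D library of mouse 5, the 3D library of mouse 5 or the 3D library of mouse 7, 5 members passed, and without the 3D library of mouse 1, 6 did. Mcm4, Mcm5, Mcm7, Cdt1 and Gmnn passed with every single library left out. With the mouse as a block, the comparison rests on mice 4 and 5 with 1 residual degree of freedom, and limma's adjusted p was 0.226 to 0.502 for the 10 members. Under that block 0.00% of genes passed. Without the 2D libraries of mice 3 and 4, which held the mesothelial markers, 10 members passed, with log2 fold changes of -2.45 to -1.18. This choice was made after seeing the data. In every member those libraries lay below the 2D libraries of mice 2 and 5, so larger falls followed from leaving them out.

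**Figure D1:**
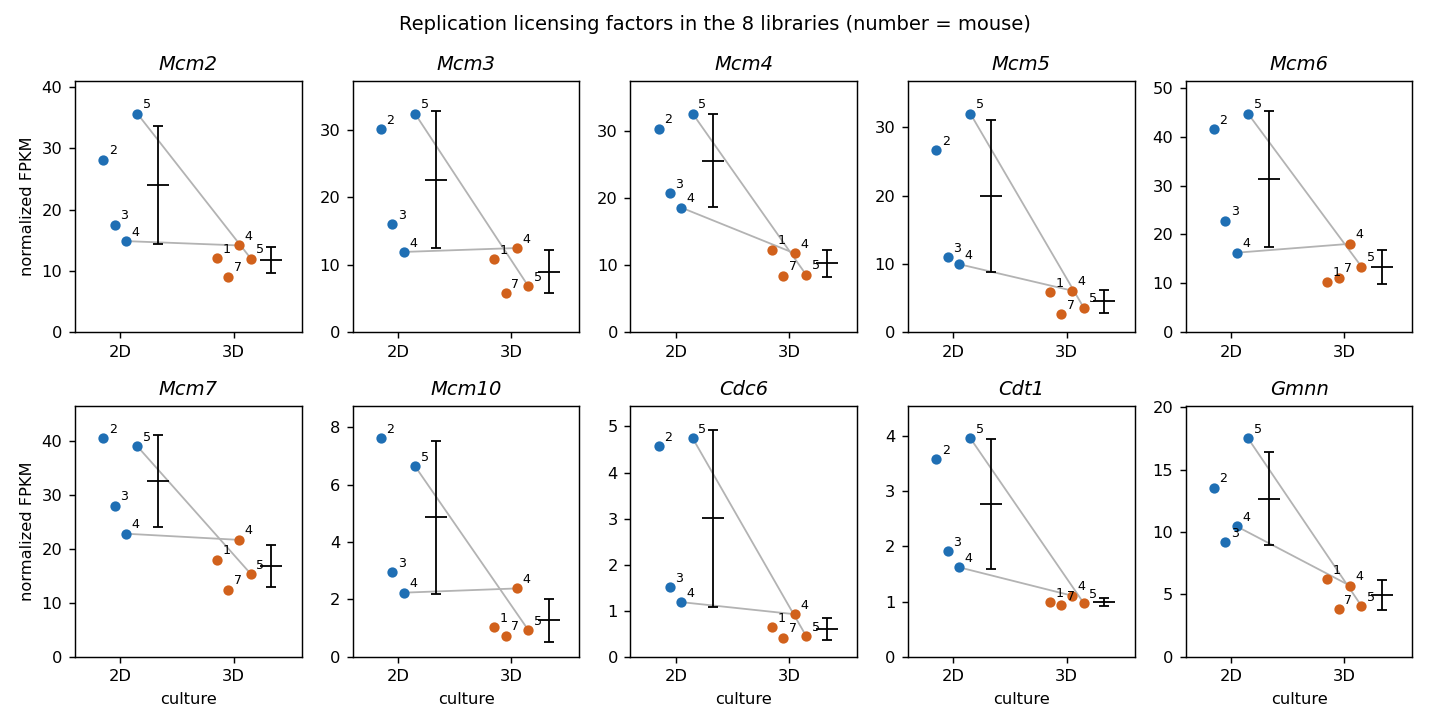
Each panel plots normalized FPKM of a licensing factor on a linear axis from 0, with 1 point per library labelled by mouse, the mean and SD beside the 4 points of each culture, and grey lines joining the libraries of mice 4 and 5. In 7 panels the 3D points all lie below the 2D points, and in those of Mcm3, Mcm6 and Mcm10 the 3D point of mouse 4 lies above the 2D point of mouse 4.

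The 6 subunits of the ring, Mcm2 to Mcm7, were the most abundant members together with Gmnn. Normalized FPKM, in which a level is per length, is given below in the order of mice 2, 3, 4 and 5 for 2D and of mice 1, 4, 5 and 7 for 3D. Mcm5, on chr8:75109569-75128439, pairs with Mcm2 at the point where the ring opens to let DNA in. Its level was 26.7, 11.0, 9.95 and 32.0 in 2D and 5.83, 6.07, 3.57 and 2.67 in 3D. The groups did not overlap, and the 2D libraries of mice 2 and 5 stood well above those of mice 3 and 4. The mean was 19.9 ± 11.1 in 2D and 4.53 ± 1.68 in 3D (SD, n = 4 each), 4.39-fold higher in 2D. The fitted log2 fold change was -1.80 (SE 0.42, 95% interval -2.78 to -0.82, adjusted p = 0.0108, limma), the largest among the members.

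Mcm4, on chr16:15623897-15637400, belongs with Mcm6 and Mcm7 to the core of the ring that carries helicase activity. Its level was 30.4, 20.7, 18.6 and 32.6 in 2D and 12.3, 11.7, 8.56 and 8.41 in 3D, without overlap. Mcm4 had the lowest limma adjusted p of the members, 0.00302, at a log2 fold change of -1.22 (SE 0.22). Mcm7, on chr5:138164583-138172422, was at 40.5, 28.0, 22.8 and 39.0 in 2D and 18.0, 21.7, 15.4 and 12.4 in 3D. Its groups did not overlap, but the 3D library of mouse 4 came within 1.05-fold of the 2D library of the same mouse. The log2 fold change of Mcm7 was -0.90 (SE 0.23, adjusted p = 0.0151, limma). Its gene model overlaps those of Ap4m1 and Cops6 on the opposite strand, so its level is less certain where counting ignored strand. Mcm6, on chr1:128331590-128359664, was at 41.6, 22.8, 16.3 and 44.7 in 2D and 10.3, 18.1, 13.4 and 11.2 in 3D. Here the groups overlapped, since the 3D library of mouse 4 lay above the 2D library of mouse 4. The log2 fold change of Mcm6 was -1.10 (SE 0.34, adjusted p = 0.0330, limma).

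Mcm2, on chr6:88883474-88898780, carries a histone-binding tail and is a main target of the Cdc7 kinase. It was at 28.2, 17.5, 14.9 and 35.6 in 2D and 12.1, 14.1, 12.02 and 9.03 in 3D. The groups did not overlap, though the lowest 2D library and the highest 3D library, both of mouse 4, were close. Its log2 fold change was -0.90 (SE 0.28, adjusted p = 0.0336, limma). Mcm3, on chr1:20802968-20820312, is the subunit through which Cdc6 and the origin recognition complex draw in the ring. It was at 30.1, 16.0, 11.9 and 32.4 in 2D and 10.9, 12.5, 6.79 and 5.75 in 3D, and the groups overlapped through mouse 4. Its log2 fold change was -1.19 (SE 0.37, adjusted p = 0.0339, limma).

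The loaders Cdc6 and Cdt1 had much lower transcript levels than the ring subunits. Cdc6, the ATPase that joins the origin recognition complex before loading, lies on chr11:98907801-98923940. Its normalized FPKM was 4.57, 1.52, 1.19 and 4.74 in 2D and 0.645, 0.924, 0.452 and 0.411 in 3D. Every 3D library was under 1 and below every 2D library. The mean normalized level was 4.94-fold higher in 2D, the largest such ratio among the members. On the values as deposited, Mcm5 had a larger ratio of means than Cdc6. The log2 fold change of Cdc6 was -1.19 (SE 0.35, adjusted p = 0.0279, limma). The added 1 FPKM shrinks the fitted change of a gene at such levels. At its longest transcript, Cdc6 rested on an estimated 30.4 to 81.4 fragments per 3D library and 98.1 to 327 per 2D library, and Cdt1 on 39.9 to 54.1 and 73.2 to 151.

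Cdt1, which carries the ring to the origin and is destroyed once S phase begins, lies on chr8:122568015-122573554. It was at 3.58, 1.91, 1.62 and 3.95 in 2D and 0.986, 1.10, 0.969 and 0.934 in 3D. The groups did not overlap, and the normalized 3D levels were closer together than for the other members, at 0.998 ± 0.0738 (SD, n = 4). On the values as deposited the 3D libraries were further apart, at 1.39, 1.28, 1.13 and 0.954. The log2 fold change was -0.86 (SE 0.23, adjusted p = 0.0181, limma). The mean normalized level of Cdt1 was 2.77-fold higher in 2D, so the added 1 FPKM shrank its fitted change too. The GENCODE model of Cdt1 overlaps that of Gm20388 on the same strand, a gene that has no row among those listed, and the annotation used for counting is not given. Gmnn, on chr13:24751845-24761923, encodes the inhibitor of Cdt1. It was at 13.5, 9.19, 10.4 and 17.5 in 2D and 6.22, 5.69, 4.07 and 3.80 in 3D, again without overlap. The log2 fold change of Gmnn was -1.18 (SE 0.23, adjusted p = 0.00454, limma), so the inhibitor fell along with the loaders. The ratio of Gmnn to Cdt1 was 4.87 ± 1.14 in 2D and 4.93 ± 1.04 in 3D (SD, n = 4 each), and the groups overlapped.

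Mcm10, on chr2:4989714-5012791, is no part of the ring and helps to start it. It was at 7.62, 2.95, 2.24 and 6.64 in 2D and 1.02, 2.38, 0.926 and 0.730 in 3D. The 3D library of mouse 4 reached into the 2D range, and the other 3D libraries lay below it. The log2 fold change was -1.30 (SE 0.38, adjusted p = 0.0267, limma). Its call depended on the scaling, with limma's adjusted p at 0.0511 on the values as deposited and 0.0501 with median ratio scaling.

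By the sample titles, mice 4 and 5 gave a library of each culture, and they differed widely. In mouse 5, all 10 members were lower in 3D, by a median of -1.84 on the log2(FPKM + 1) scale, from -2.85 (Mcm5) to -1.29 (Mcm7). In normalized FPKM, the 2D level of mouse 5 was 10.5 times the 3D level for Cdc6, 8.96 times for Mcm5 and 2.54 times for Mcm7. On the values as deposited these ratios were 8.10, 9.06 and 2.91, so Mcm5 came first. In mouse 4, 7 of 10 members were lower in 3D, by a median of -0.13 over the 10, and none differed by as much as 1. Gmnn (-0.77), Mcm5 (-0.63) and Mcm4 (-0.62) had the largest differences in mouse 4, whereas Mcm6 (0.14), Mcm3 (0.06) and Mcm10 (0.06) were slightly higher in 3D. Mki67, which encodes the proliferation marker Ki-67, was at 12.9 in 2D and 19.3 in 3D in mouse 4, and at 47.3 and 7.46 in mouse 5. With 1 library per mouse and culture these differences carry no test. The 2D library of mouse 4 was the lowest of its group for 9 members and its 3D library the highest of its group for 8. That 2D library also had the highest mesothelial sum, and the part of those cells in its levels was not tested.

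**Figure D2:**
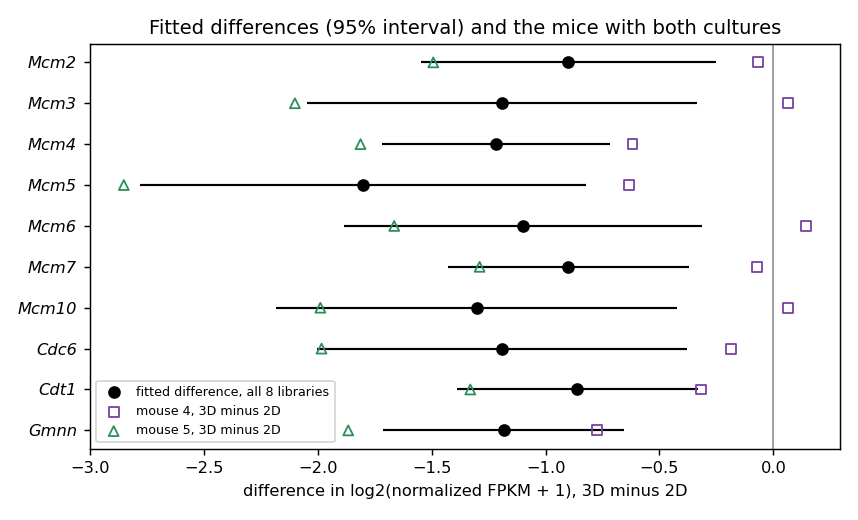
For each member, the black point and line give the fitted difference in log2(normalized FPKM + 1) between 3D and 2D over the 8 libraries with its 95% interval, and the open symbols give the difference within mouse 4 (squares) and mouse 5 (triangles). The triangles lie between -2.85 and -1.29, whereas the squares lie between -0.77 and 0.14.

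The members moved together from library to library. Over the 8 libraries, the log2 profile of each member correlated with the mean profile of the other ring subunits at Pearson's r of 0.947 (Mcm6) to 0.991 (Mcm5). These values describe points that share libraries and culture groups, so part of each is the difference between the cultures. In 2D, mouse 5 had the highest level for 8 members and mouse 2 for the other 2. In 3D, mouse 4 was highest for 8 members and mouse 1 for 2, and mouse 7 was lowest for 9. The 12567 genes outside the members that averaged 1 FPKM or more were set against the mean profile of all of Mcm2 to Mcm7. The highest correlations included those of Kif2c (r = 0.998), Ncapg (0.997), Racgap1 (0.996) and Espl1 (0.996). These were picked as the highest of many genes, so their r is not to be ranked against that of the members. Kif2c is a microtubule-depolymerizing kinesin of the mitotic centromere, and its normalized FPKM was 3.96 to 15.8 in 2D and 0.855 to 3.08 in 3D.

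The proteins Mcm2 to Mcm7 work as a ring with each subunit present once, yet their transcripts were less even in 3D. The highest of the 6 levels divided by the lowest was 1.56, 2.56, 2.29 and 1.40 in the 2D libraries and 3.09, 3.57, 4.30 and 4.66 in the 3D libraries. The groups did not overlap, with means of 1.95 ± 0.560 and 3.91 ± 0.707 (SD, n = 4 each), and they did not overlap on the values as deposited either. Mcm5 made up 9.44% to 14.8% of the summed FPKM of the 6 subunits in 2D and 5.39% to 8.39% in 3D. Mcm7 made up 18.0% to 24.2% in 2D and 25.1% to 25.9% in 3D. The separation of the Mcm5 and Mcm7 shares was lost on the values as deposited, where both overlapped. The share of Mcm2, 15.4% ± 0.935 in 2D and 18.1% ± 1.45 in 3D (SD, n = 4 each), stayed apart on both scales. The shares of Mcm3, Mcm4 and Mcm6 overlapped.

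**Figure D3:**
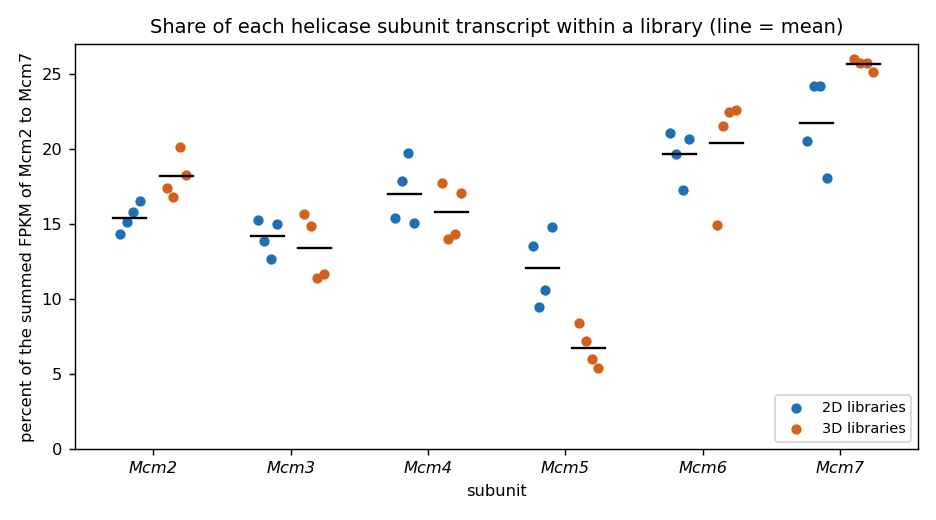
Points give the percentage of the summed FPKM of Mcm2 to Mcm7 that each subunit held in each 2D and 3D library, on an axis from 0, with a line at the mean of the 4 libraries. The Mcm5 share is lower in the 3D libraries (5.39% to 8.39%) than in the 2D libraries (9.44% to 14.8%), and 1 of the 3D libraries, that of mouse 1, has a low Mcm6 share of 14.9%.

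Relative to the ring, Cdc6 was lower in 3D. Its level over the mean of Mcm2 to Mcm7 was 0.106 ± 0.0338 in 2D and 0.0542 ± 0.00884 in 3D (SD, n = 4 each), without overlap, although the groups overlapped on the values as deposited. The same ratio for Mcm10 was 0.178 ± 0.0402 in 2D and 0.110 ± 0.0400 in 3D, and the groups overlapped. The mean level of the ring subunits over Mki67 was 1.01 ± 0.190 in 2D and ranged from 0.638 to 2.95 in 3D, so it did not separate the cultures.

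Per length, Mcm7 was the most abundant member in both cultures, at a mean of 32.6 normalized FPKM in 2D and 16.9 in 3D. Mcm6 came next, at 31.3 and 13.2. In 2D the order went on with Mcm4, Mcm2, Mcm3, Mcm5 and Gmnn (12.7), then Mcm10 (4.86), Cdc6 (3.00) and Cdt1 (2.77). Among neighbours in this order, Gmnn and Mcm10 were the single pair whose ranges did not overlap. In 3D the order was Mcm2, Mcm4, Mcm3, Gmnn (4.94) and Mcm5 (4.53) after Mcm6, followed by Mcm10 (1.27), Cdt1 (0.998) and Cdc6 (0.608). Here the ranges of Mcm5 and Mcm10, and of Cdt1 and Cdc6, did not overlap, and those of the other neighbours did.

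Other genes of DNA replication and the cell cycle were taken from 8 lists with 86 genes, all tested. The lists include 13 genes of the E2F and RB families and 8 proliferation markers. Of the 86, 49 were lower in 3D, 3 were higher and 34 did not pass limma's adjusted p of 0.05. The median log2 fold change of the 86 was -0.78. By the same threshold, 20.3% of all genes tested were lower in 3D and 21.2% higher. Of the genes averaging 1 FPKM or more, 26.0% were lower. The counts of each list below are to be read beside these shares, and some lists hold few genes. In the origin recognition complex, which marks the sites where the ring is loaded, 3 of 6 genes fell and 0 rose. Orc1, its cell cycle regulated subunit, was at 2.16 ± 1.24 in 2D and 0.484 ± 0.0908 in 3D (SD, n = 4 each), with a log2 fold change of -1.01 (adjusted p = 0.0192, limma). Orc6, its smallest subunit, was at 18.3 ± 2.37 and 6.06 ± 1.33, with a log2 fold change of -1.46 (adjusted p = 0.000256, limma). The 3 that did not pass, named after their values were seen, had log2 fold changes of 0.18 (Orc3), 0.01 (Orc4) and -0.27 (Orc5).

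Helicase activation, the step that follows licensing, was lower for 10 of 13 genes, with a median log2 fold change of -1.17. Cdc45, which binds the ring to make the active helicase, was at 13.04, 5.57, 4.82 and 15.2 in 2D and 1.39, 1.75, 1.04 and 0.966 in 3D. The groups were far apart, and the library order within 2D was that of most licensing factors, namely Mcm2 to Mcm6, Cdc6 and Cdt1. Its log2 fold change was -2.09 (SE 0.36, adjusted p = 0.00275, limma), larger in size than that of any licensing factor. The relatives of the ring subunits went in different directions. Mcm8 fell from 3.54 ± 1.70 to 1.22 ± 0.0210 and Mcm9, its partner in repair by recombination, rose from 2.26 ± 0.704 to 4.09 ± 0.614 (SD, n = 4 each). Limma's adjusted p was 0.0232 for Mcm8 and 0.0278 for Mcm9. Both calls were lost when some single libraries were left out, with limma's adjusted p up to 0.0590 for Mcm8, without the 2D library of mouse 5, and 0.0717 for Mcm9, without that of mouse 2. The call of Mcm8 was also lost on the values as deposited (adjusted p = 0.0519, limma) and with median ratio scaling (0.0511).

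At the replication fork, 12 of 26 genes fell and 1 rose, with a median log2 fold change of -0.58. Fen1, the flap nuclease of Okazaki fragments, fell most, by 1.52 on the log2 scale (adjusted p = 0.00520, limma). Pold3, a subunit of DNA polymerase delta, was higher in 3D, at 5.81 ± 2.73 in 2D and 15.3 ± 2.31 in 3D (SD, n = 4 each, adjusted p = 0.00836, limma). Pcna, the sliding clamp on which Cdt1 is destroyed in S phase, was at 58.6 ± 14.4 and 38.3 ± 7.22, with overlapping groups and limma's adjusted p of 0.04998. Leaving out single libraries took Pcna to an adjusted p of up to 0.119, without the 3D library of mouse 7. Of the genes of nucleotide supply, 6 of 8 fell and none rose. Rrm1, the large subunit of ribonucleotide reductase, went from 69.4 ± 5.54 to 11.7 ± 5.25 (SD, n = 4 each), a log2 fold change of -2.57 (adjusted p = 0.00031, limma). Within mouse 4, Rrm1 was at 62.4 in 2D and 15.6 in 3D, while the licensing factors of that mouse differed by a median of -0.13 on the log2 scale.

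Among the genes that destroy or restrain licensing factors, 7 of 9 fell. Dtl directs the ubiquitin ligase that removes Cdt1 in S phase, and its log2 fold change was -1.002 (adjusted p = 0.0339, limma). That call was lost on the values as deposited (adjusted p = 0.0750, limma), with median ratio scaling (0.0735) and with each of 5 single libraries left out in turn, up to 0.0863 without the 3D library of mouse 7. Skp2, part of another ligase for Cdt1, went from 9.01 ± 3.52 in 2D to 2.69 ± 0.156 in 3D (SD, n = 4 each, adjusted p = 0.00390, limma). Cdc20, an activator of the anaphase-promoting complex that degrades geminin, fell by 2.09 on the log2 scale (adjusted p = 0.0123, limma). In the E2F and RB families, 5 of 13 genes fell, 1 rose and 7 did not pass. Over all genes tested, 20.3% were lower and 21.2% higher. E2f1, an activator, went from 18.6 ± 2.52 to 6.25 ± 2.56 (adjusted p = 0.00157, limma), and E2f7, a repressor, from 4.09 ± 3.31 to 0.348 ± 0.176 (SD, n = 4 each, adjusted p = 0.0191, limma). E2f5, which acts with RB relatives in resting cells, was higher in 3D, at 6.25 ± 1.41 in 2D and 20.1 ± 1.62 in 3D (adjusted p = 0.000162, limma). Without the 3D library of mouse 7, limma's adjusted p of E2f7 was 0.0503. E2f1 and E2f7 thus shared the direction of the licensing factors between the cultures, and E2f5 went the other way. Within 2D, E2f1 did not follow the library order of most members, at 18.1, 15.6, 19.2 and 21.7 in mice 2, 3, 4 and 5. E2f7 did follow it, at 5.01, 1.86, 1.11 and 8.36 in the same mice. The part of either factor in the levels of the members was not tested.

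Proliferation markers were lower for 5 of 8 genes, with a median log2 fold change of -1.74. Ccne1, the cyclin E that drives entry into S phase, went from 18.1 ± 8.90 to 1.96 ± 0.884 (SD, n = 4 each), a log2 fold change of -2.61 (adjusted p = 0.00107, limma). In mouse 4, whose licensing factors differed little, Ccne1 was at 10.04 in 2D and 3.28 in 3D. Ccne1 had the largest fall of its list, and other genes of the list went either way in that mouse. Ccne2 was at 2.15 in 2D and 0.656 in 3D there, and Top2a at 19.3 and 28.0. Mki67 was at 27.8 ± 15.5 in 2D and 11.9 ± 8.10 in 3D, with overlapping groups, and did not pass (adjusted p = 0.140, limma). Under the mouse block, 0 of the 86 genes passed by adjusted p. Without adjustment, 6 of the 86 and 0 of the 10 members were below 0.05 under the block, against 27.7% of all genes tested.

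**Figure D4:**
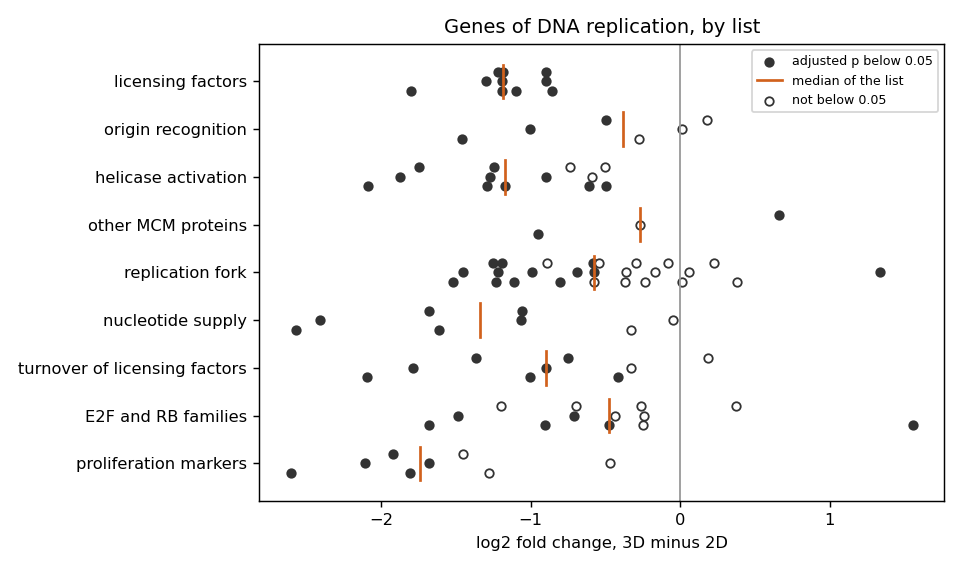
Each row plots the log2 fold changes, 3D minus 2D, of the genes of a list, with filled points for an adjusted p below 0.05, open points for the others and an orange line at the list's median. The licensing factors are all filled and to the left of 0, around a median of -1.19, whereas the single filled points of the replication fork (Pold3) and of the E2F and RB families (E2f5) to the right of 0 lie at 1.34 and 1.56.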

How the data were processed

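The authors made directional libraries from RNA depleted of ribosomal RNA, checked paired-end reads with FastQC, trimmed them, mapped them with TopHat and estimated gene levels with Cufflinks. The submitters' processing notes name the build mm10, and the annotation and the use of strand in counting are not given in the sources used here. The deposited FPKM values are on a linear scale and carry no read counts. The methods name quantile normalization in R, but upper quartiles and maxima differ between libraries, so the deposited values precede that step.

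The members and lists were chosen with earlier results of these data known. Genes at 0 in all 8 libraries (5484) were dropped, and the other 18862 were quantile normalized and taken as log2(FPKM + 1). Cultures were compared without covariates with limma 3.58.1 in R 4.3.3 (empirical Bayes, intensity trend). Levels are normalized FPKM unless stated. The model was tested on simulated data. By the sample titles, mice 4 and 5 are the same animals in both cultures. The deviations of their 2D and 3D libraries from the culture means correlated at -0.0526 and -0.113 over 12577 genes.

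Beyond the members, the text names from each list the gene with the largest rise and largest fall among those past the threshold, a few genes of the licensing step, and the 5 genes most like Mcm2 to Mcm7, of which 1 is not reported here. Changes of low genes such as Cdc6 are compressed by the added 1 FPKM. Depth came from 753 single-transcript genes of 3000 nt or more, of which 70.1% to 81.2% of low values per library lay within 0.15 of a whole fragment number. In the 8 libraries 3 fragments on 1 kb correspond to 0.174 to 0.207 FPKM, which covers counting error only. Gene coordinates are those of GENCODE M21 on GRCm38, and promoter sequences those of RefSeq.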

Additional observations from a re-analysis of the deposited data

Results flagged for a closer look

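In the groups of 4 libraries, 44 sets of values were checked for a sample far from the others, and chance marks about 1 in 20 of such sets. The level of Mcm10 over the mean of Mcm2 to Mcm7 in 3D was marked because mouse 4 stood apart, at 0.170 against 0.0885 to 0.0930 in mice 1, 5 and 7. Its gap to the nearest library was 0.944 of the group's range. The share of Mcm6 in the summed FPKM of Mcm2 to Mcm7 in 3D was marked for mouse 1, at 14.9% against 21.5% to 22.6% in the other 3D libraries, with a gap of 0.858 of the range.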

How the results depend on the processing

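The direction of every member was lower in 3D under all alternatives run. With the replicate block of mice, 0 members passed the adjusted threshold and 0 the study's criterion, and 0 of the 86 list genes were lower and 0 higher. With mice 4 and 5 alone, these counts were 0, 2, 4 and 1. Leaving out each library in turn gave 5 to 10 members past the adjusted threshold, 4 to 10 past the study's criterion, and 34 to 51 list genes lower and 2 to 3 higher. On the values as deposited and with median ratio scaling, 41 list genes were lower in place of 49, and 5 were higher in place of 3. With either of these, 9 members passed in place of 10. The ratio of Cdc6 to the ring in 3D was 0.0645 on the values as deposited, against 0.0542. A pseudocount of 0.1, only genes averaging 1 FPKM or more, no intensity trend and the mouse as a random effect (correlation -0.0439) each left 10 members past the threshold. Without the 2D libraries of mice 3 and 4, an alternative added after seeing the data, 10 members passed both rules, and 59 list genes were lower and 2 higher. Those libraries were the lowest of 2D for every member, so larger falls of the members followed from that choice. No scaling moved the median of all genes by 0.1 on the log2 scale. With 4 libraries per culture and mice shared only in part, the effects of mouse and culture on the members cannot be told apart fully.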

Other observations

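The gene models at the Mcm7 locus overlap, and these neighbours were looked at after their values were seen. Ap4m1, which encodes a subunit of the AP-4 adaptor complex, and Cops6, a subunit of the COP9 signalosome, lie on the strand opposite to Mcm7. Ap4m1 was higher in 3D, at 12.5 ± 1.25 normalized FPKM against 6.53 ± 0.572 in 2D (SD, n = 4 each), with a log2 fold change of 0.84 (adjusted p = 0.000669, limma). Cops6 was at 58.1 ± 8.96 in 2D and 53.7 ± 4.83 in 3D (adjusted p = 0.516, limma). Mir106b, Mir93 and Mir25, which lie within Mcm7 on its own strand, were listed at 0 in all 8 libraries. The use of strand in counting is not given, so reads shared between Mcm7 and its neighbours cannot be told apart.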
